A study of Mus musculus with 6 samples.

Results

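Telomerase and shelterin are the enzyme and the protein complex that maintain and protect the ends of chromosomes. The 10 genes described here are Tert, Dkc1 and Wrap53 of telomerase, Terf1, Terf2, Terf2ip, Tinf2, Acd and Pot1a of shelterin, and Rif1. They were chosen by symbol, and all 10 were found among the 18312 genes of the table. The study set out to find the mRNA targets of Brf1 (Zfp36l1) and Brf2 (Zfp36l2), zinc finger proteins that bind AU-rich elements in mRNAs and promote their decay. The labels describe 6 libraries from the mouse embryonic stem cell line E14, wild-type and of 129/Ola background, kept in 15% serum with 1000 U/ml LIF, the cytokine that holds these cells undifferentiated. They are 2 libraries of RNA co-precipitated by an antibody that recognises Brf1 and Brf2, 2 precipitated by non-specific rabbit IgG as the control, and 2 of total RNA. The cells are 1 line with no genetic change.

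No column of the table names a library, so its values belong to no known group. No comparison of the Brf immunoprecipitate with IgG or with total RNA was made, and there are no replicates. The table does not say whether 1 library or several merged ones gave its values. The levels below may describe precipitated RNA rather than the RNA of the cells, and they measure neither binding nor enrichment. The table holds 22625281 counts. All 8 listed embryonic stem cell markers were at 40.6 FPKM or more (FPKM is the count scaled to the effective length and to the total count). Of 8 fibroblast markers 2 were at 1 FPKM or more, against 56.0% of all genes. The summed level of the 8 was 48.2 FPKM, of which Fn1, which encodes the matrix protein fibronectin, held 42.4. The other was Thy1, a surface glycoprotein gene, at 3.74 FPKM. The defining collagen genes Col1a1, Col1a2 and Col3a1 were at 0.902, 0.543 and 0.0862 FPKM, and Postn had 0 counts, which allows up to 0.0324 FPKM. Scaled to the model length instead, Col1a1 was at 1.87 FPKM and 3 fibroblast markers were at 1 FPKM or more. Of 6 measured primitive endoderm markers 1 was, Dab2 at 3.05 FPKM, with a summed level of 4.87 FPKM. The part of other cells in the levels below was not tested.

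Mammalian telomeres are long arrays of the repeat TTAGGG that end in a single-stranded overhang. Telomerase, a reverse transcriptase that carries its own RNA template, extends the overhang, and shelterin coats the repeats, keeps the damage response away from them and controls the access of telomerase. Mouse embryonic stem cells are known for active telomerase and for maintaining their telomeres through long culture.

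The stretches that bear on the study's question are the AU-rich motifs in the 3′ untranslated regions of these mRNAs, because Brf1 and Brf2 bind such elements. On GRCm38, Rif1 lies on chromosome 2, Terf1 on 1, Pot1a on 6, Terf2, Terf2ip and Acd on 8, Wrap53 on 11, Tert on 13, Tinf2 on 14 and Dkc1 on X. The heptamer TATTTAT, read on the mRNA strand, was found in annotated coding transcripts of 4 of the 10 genes, at 1 genomic position in each. The share was 30.3% among the 17527 genes with an annotated region of at least 50 nt, which include 9 of the 10 genes and all 4 with the heptamer. Each stretch is shown 5′ to 3′ with the heptamer in capitals, from GENCODE M21 transcripts, with positions on GRCm38, another build than the mm9 of the authors' processing.

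Rif1: ctctttcaaaaTATTTATatttgttgtgc

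Pot1a: tattttattgtTATTTATgctgtcttgtg

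Terf1: acctattgaaaTATTTATgagaaagtcag

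Terf2: attatacttgaTATTTATgaaagaccagt

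The Rif1 stretch lies at chr2:52121570-52121598 on the plus strand. It is in all 3 coding transcripts with an annotated region, and in the transcript nearest in length to the table's model the heptamer starts 378 nt after the stop codon. The Pot1a stretch lies at chr6:25744410-25744438 on the minus strand. It occurs in 1 of 2 coding transcripts, the nearest one, with the heptamer 154 nt after the stop codon. The Terf1 stretch, at chr1:15843925-15843953 on the plus strand, occurs in 1 of 2 coding transcripts, and not in the nearest one. Its heptamer starts 854 nt after the stop codon. The coding sequence of the nearest Terf1 transcript takes up all but 454 nt of the Terf1 model, so that model is too short to reach the site. The Terf2 stretch, at chr8:107076266-107076294 on the minus strand, lies in the alternative last exon of 1 of 4 coding transcripts, again not the nearest.

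With the longest region per gene, 3 of the 9 genes with a region of at least 50 nt held the heptamer (Terf1, Terf2 and Rif1), against 29.2% of 17527 genes. Restricted to transcripts within 10% of the model length, 2 of 6 held it (Pot1a and Rif1), against 24.3% of 13600 genes. The shares lie near those of all genes. Among regions 0.8 to 1.25 times as long as the longest of Rif1, 1691 nt, 36.8% held the heptamer. The share was 24.7% for the longest of Terf1 and 25.5% for that of Terf2. All 3 of these longest regions belong to another transcript than the one nearest in length to the model. None of the 9 held the longer TTATTTATT, which 8.06% of all genes did.

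The shorter core ATTTA, which the heptamer contains, was found in the longest region of 8 genes, against 67.5% of all genes. Rif1 had 8 copies in 1691 nt, and 7.65% of regions of similar length had at least as many. Its nearest transcript had 6 in 1180 nt. Terf1 had 5 copies in 970 nt, and 8.20% of similar regions had at least as many. Its nearest transcript, within 10% of the model length, had 1 in 388 nt. Tinf2 had 5 copies in 1472 nt, none of them in its nearest transcript. Dkc1 and Pot1a had 3 each, and Terf2, Terf2ip and Acd had 1 each. The Acd copy starts 1787 nt after the stop codon. The Acd model leaves at most 174 nt beyond the coding sequence, so it is too short to reach that copy. Tert had none in 830 nt, where 67.9% of regions of similar length had at least 1. The annotated Wrap53 region is 20 nt long and held neither motif. A motif match is a description of the letters and not of a bound site.

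**Figure D1:**
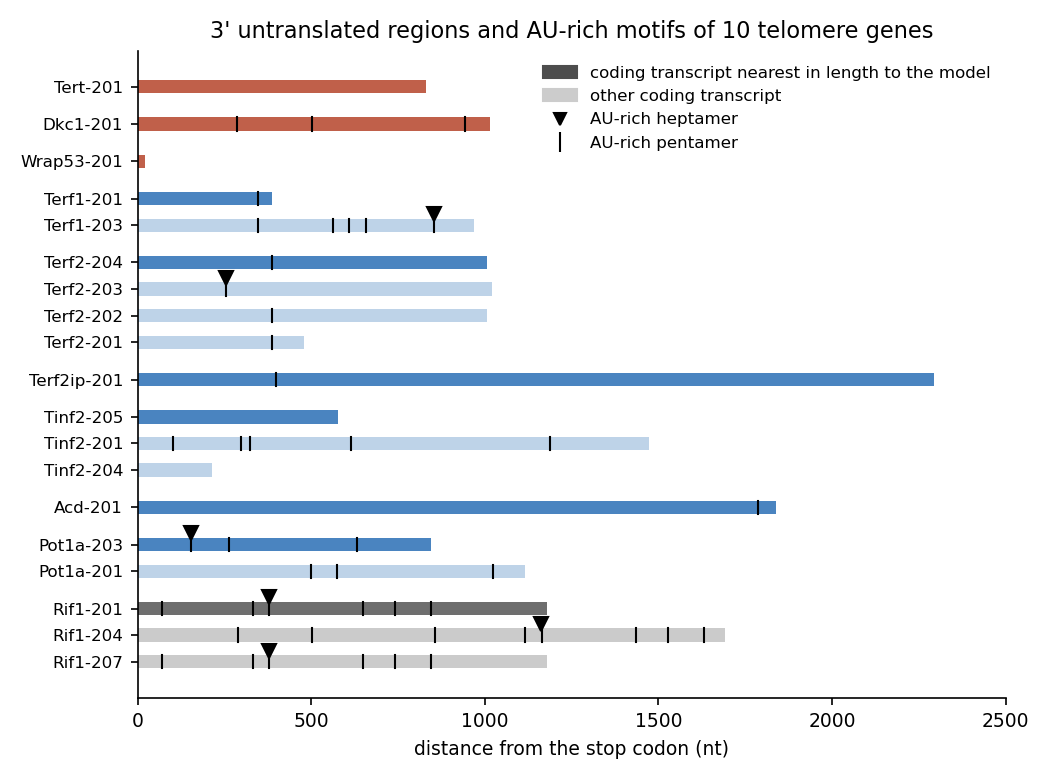
Annotated 3′ untranslated regions of the coding transcripts of the 10 genes, drawn to scale from the stop codon in nt, with dark bars for the transcript nearest in length to the table's model and pale bars for the others. Triangles mark the AU-rich heptamer and ticks the AU-rich pentamer it contains. Rif1 carries the heptamer in all 3 transcripts drawn, Pot1a in its nearest one, and Terf1 and Terf2 only in a pale bar.

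Among the telomerase genes, Dkc1 was far above Tert and Wrap53. Dkc1 encodes dyskerin, which binds the H/ACA motif of telomerase RNA and is also the pseudouridine synthase of H/ACA small nucleolar ribonucleoproteins. It was at 115.6 FPKM (113.1 to 118.1) with 8355 counts, rank 477 of all genes. It had the highest value of the 10 on the effective length, with an interval that overlapped that of Terf1, and came after Terf1 on the model length. Intervals on FPKM are the bounds in the authors' table, which for these genes equal 2 square roots of the count on either side, and they cover counting error only.

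Tert, the catalytic reverse transcriptase, was the lowest of the 10 at 2.60 FPKM (2.30 to 2.90). Its 305 counts are 13.5 CPM (Wilson 95% interval 12.1 to 15.1). Its level was 1.34 times the median of all genes, 1.94 FPKM, and 53.1% of genes lay below it. The Tert model is 3426 nt long and the annotated coding sequence 3369 nt, so at most 57 nt of the model are untranslated. Most of the annotated 3′ region of 830 nt therefore lies outside it. As in any bulk RNA, fewer cells that express a gene and less of its RNA per cell cannot be told apart.

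Wrap53 encodes TCAB1, which brings telomerase to Cajal bodies and telomeres, and was at 7.28 FPKM (6.64 to 7.93) with 506 counts. Per effective length, Dkc1 was 44.4 times Tert (exact 95% interval from the counts 39.6 to 50.0) and 15.9 times Wrap53 (14.5 to 17.4), and Wrap53 was 2.80 times Tert (2.42 to 3.24). On the model length the ratio of Dkc1 to Tert was 33.5 (29.9 to 37.7), and that of Dkc1 to Wrap53 11.2 (10.2 to 12.2). The order of the 3 genes was the same on both lengths.

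The genes of shelterin spanned a 22.3-fold range, with Terf1 above the rest. Terf1 encodes TRF1, which binds the double-stranded repeat and supports its replication, and was at 112.5 FPKM (109.4 to 115.6) with 5308 counts. Terf2 encodes TRF2, the other double-strand binder, which protects chromosome ends from fusion, and was at 7.19 FPKM (6.59 to 7.78) with 584 counts. Terf1 was 15.7 times Terf2 (14.4 to 17.1), and 14.8 times on the model length (13.6 to 16.2). The 2 proteins share a domain plan, but no stretch of 100 nt or more with at least 95% identity joined their transcripts to each other or to another annotated gene.

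Terf2ip encodes Rap1, which sits on telomeres through its binding to TRF2. It was the lowest shelterin gene at 5.04 FPKM (4.65 to 5.44) with 645 counts, 0.702 times Terf2 (0.626 to 0.786). Without Terf1, the 5 other shelterin genes lay within a 4.92-fold range.

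Tinf2, Acd and Pot1a encode TIN2, TPP1 and POT1a, the chain that links the double-strand binders to the overhang. TIN2 is the hub that holds TRF1 and TRF2, and Tinf2 was at 24.8 FPKM (23.4 to 26.2) with 1206 counts. TPP1 connects TIN2 to POT1 proteins and recruits telomerase, and Acd was at 7.82 FPKM (6.97 to 8.66) with 343 counts. POT1a binds the single-stranded overhang and restrains the ATR response, and Pot1a was at 14.2 FPKM (13.4 to 15.1) with 1142 counts. Tinf2 was 3.17 times Acd (2.81 to 3.59), and Pot1a was 1.82 times Acd (1.61 to 2.06). Both ratios stayed above 1 on the model length, at 2.88 and 1.50. Pot1b, the mouse paralog of Pot1a, was not analysed here.

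Rif1 was named after a yeast Rap1 partner. In mammalian cells its protein controls replication timing and the choice of repair pathway at breaks, and in mouse embryonic stem cells it has been tied to telomere length and to silencing of the Zscan4 cluster. Rif1 was at 105.4 FPKM (103.9 to 106.9). It had 19612 counts, rank 132 of all genes by counts but 527 by FPKM, because its model of 8502 nt is the longest of the 10. Rif1 was 14.7 times Terf2 (13.5 to 15.9) and 40.5 times Tert (36.2 to 45.5). It was 10.5 times Terf2 (9.69 to 11.4) and 25.9 times Tert (23.1 to 29.1) on the model length.

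**Figure D2:**
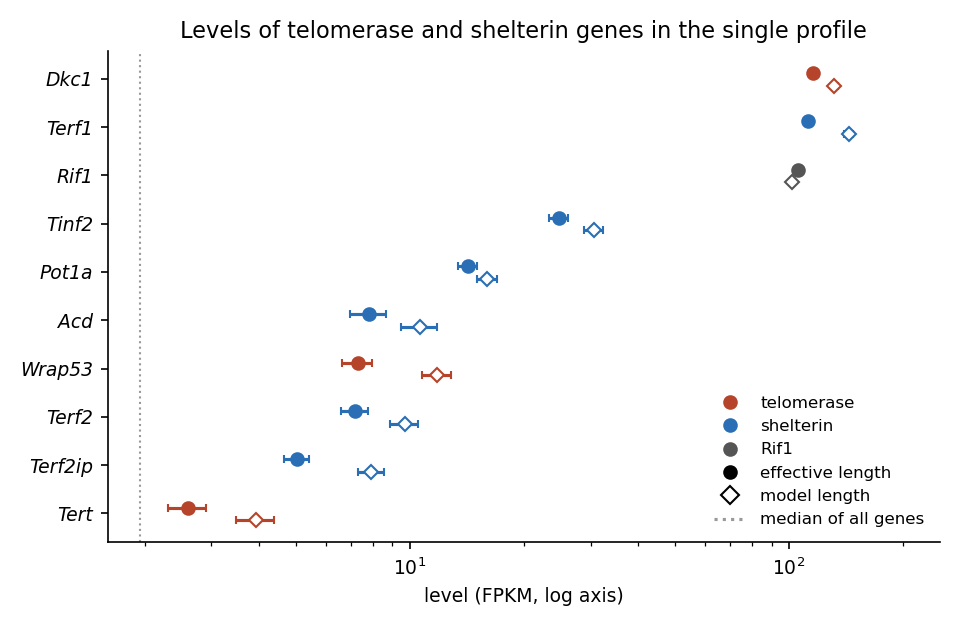
Levels of the 10 genes in FPKM on a log axis, with the counting interval as a bar (2 square roots of the count on either side). Circles use the effective length of the authors' table and open diamonds the model length, and the dotted line is the median of all genes, 1.94 FPKM on the effective length. Dkc1, Terf1 and Rif1 lie above 100 FPKM on both lengths, and Tert is the lowest on both.

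Ordered by level, Dkc1, Terf1 and Rif1 stood apart from the rest on both lengths, and the other genes formed no clear groups. On the effective length Dkc1 and Terf1 had overlapping intervals and a ratio of 1.03 (0.992 to 1.06). On the model length their intervals did not overlap, with Dkc1 at 0.917 times Terf1 (0.886 to 0.949). Rif1 lay below both on either length. Tinf2 and then Pot1a followed, each apart from its neighbours. Acd, Wrap53 and Terf2 had overlapping intervals between 6.59 and 8.66 FPKM. Terf2ip and Tert came last, each below the interval of the gene above it. In 6 of the 9 neighbouring pairs the intervals did not overlap. Dkc1, Terf1 and Rif1 together held 33275 counts, 87.6% of the 38006 counts of the 10 genes, which were 0.168% of the table.

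Set beside all genes, each of the 10 had at least 1 FPKM, against 56.0% of the table. At least 5 FPKM was reached by 9 of them, against 38.3%, and at least 100 FPKM by 3, against 3.06%. Their median was 11.0 FPKM, against 1.94 FPKM for all genes and 9.66 FPKM for the genes with at least 1 FPKM. These are descriptions of 1 profile, with no test.

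The levels depended on the length used. The effective length in the table was 1.31 times the model length at the median of the 10 genes and 1.27 times at the median of all genes. It ran from 0.967 for Rif1, the single gene of the 10 below 1, to 1.62 for Wrap53, with 1.57 for Terf2ip and 1.51 for Tert. On the model length 9 genes were higher, and all 10 values lay outside their counting interval. Terf1 at 143.7 FPKM then came before Dkc1 at 131.7, with Rif1 at 102.0, and Wrap53 at 11.8 came before Acd at 10.6 and Terf2 at 9.69. Tinf2, Pot1a, Terf2ip and Tert kept their places at 30.7, 16.0, 7.92 and 3.93 FPKM. The GC content of the nearest coding transcript was 39.3% for Rif1, 56.3% for Wrap53, 47.7% for Terf2ip and 53.6% for Tert. Acd had the highest GC content, 57.0%, with a length ratio of 1.36, and Tinf2 had 54.1% with a ratio of 1.24. The nearest transcripts of Tert, Tinf2 and Acd differ from the model by more than 10% in length. For Acd the transcript has 3154 nt and the model 1425 nt. The GC content of these 3 transcripts may therefore differ from that of the models to which the length ratios belong. Across the 10 genes the length ratio and the GC content had a Spearman rho of 0.673, a description over genes, which are not independent replicates.

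Some counts could include reads of neighbours, and how strand was treated is not given in the sources used here for any gene. The nearest Tinf2 transcript shared 403 nt with exons of Gmpr2 on the other strand, 51 of them coding. That of Acd shared 1089 nt with Carmil2 on the other strand, none of them coding, and the Acd model of 1425 nt leaves at most 174 nt beyond the coding sequence. Gmpr2 was at 15.3 FPKM and Carmil2, listed as Rltpr, at 1.36 FPKM. Dkc1 shared 45 nt with Mpp1. The other 7 genes had no exon overlap with another gene in the nearest transcript. Stretches of 100 nt or more with at least 95% identity to another gene's transcript were found for Dkc1 (4 genes) and Terf2ip (2 genes), all in sequence beyond the coding part and none over 145 nt. Total and unique counts were equal in every row of the table, so reads shared between genes cannot be seen in it.

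The partners that assemble telomerase ranged from 1.53 to 187.3 FPKM, on both sides of Dkc1 and Wrap53. Of 16 listed genes 15 were measured, all at 1 FPKM or more, against 56.0% of all genes. The median of the 15 was 25.4 FPKM (29.5 on the model length). The telomerase RNA gene Terc was not analysed here. NOP10 and NHP2 are, with dyskerin, core proteins of the H/ACA particle. Nop10 was the highest of the list at 187.3 FPKM (179.9 to 194.8) and Nhp2 was at 166.0 (162.0 to 169.9), so that Dkc1 was 0.617 times Nop10 and 0.697 times Nhp2. On the model length Nhp2 at 310.3 was above Nop10 at 160.3, and Dkc1 was 0.822 times Nop10 and 0.425 times Nhp2. Gar1, the fourth core gene, was at 46.1 FPKM, and Dkc1 was 2.51 times Gar1 (2.40 to 2.62). With the model length, Gar1 was at 85.8 FPKM and Dkc1 was 1.54 times Gar1 (1.47 to 1.61). Naf1, which holds the place of GAR1 during assembly, was at 29.1 FPKM, and Shq1, an early dyskerin chaperone, at 11.7 FPKM. The ATPases Ruvbl1 and Ruvbl2, known in human cells to help assemble telomerase, were at 65.4 and 54.6 FPKM, below Dkc1. With the model length, Dkc1 at 131.7 FPKM was instead below Ruvbl1 at 154.7, and close to Ruvbl2 at 135.9. The lowest was Tep1, a telomerase-associated protein gene, at 1.53 FPKM (1.39 to 1.68).

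Among other factors that bind or replicate chromosome ends, 13 of 18 listed genes were measured. None of the 13 was under 1 FPKM, where 56.0% of all genes reached that level, and their median was 15.7 FPKM (23.9 on the model length). The rest, Pot1b, Stn1, Pola2, Fen1 and Tnks2, were not found in the table by symbol or synonym. They have no level here, which is not the same as a low one. Primase, which with polymerase alpha fills in the strand opposite the overhang, had the highest gene, Prim1, at 58.6 FPKM. The lowest was Zbtb48, which encodes TZAP, a zinc finger protein that binds the telomere repeat, at 2.40 FPKM (2.06 to 2.75), close to Tert. Ctc1 and Ten1 of the CST complex, which caps the overhang and ends its extension, were listed as 1500010J02Rik and 2310004N24Rik at 11.6 and 5.74 FPKM. The helicase gene Rtel1 was at 15.7 FPKM, Atrx, a chromatin remodeller at telomeres, at 43.3 and its partner Daxx at 17.3. The nuclease gene Dclre1b, whose product works with TRF2 on newly replicated ends, was at 4.50 FPKM.

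All 18 listed genes of damage signalling and end joining, the reactions that shelterin holds back, reached 1 FPKM, against 56.0% of all genes. The median of the 18 was 14.7 FPKM (20.5 on the model length). Parp1, a sensor of strand breaks, was the highest at 95.3 FPKM and Prkdc, the catalytic kinase of end joining, the lowest at 4.79. The kinase genes Atm and Atr, restrained by TRF2 and POT1 proteins, were at 11.0 and 8.94 FPKM. Trp53bp1, whose product recruits RIF1 to breaks, was at 14.3 FPKM.

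**Figure D3:**
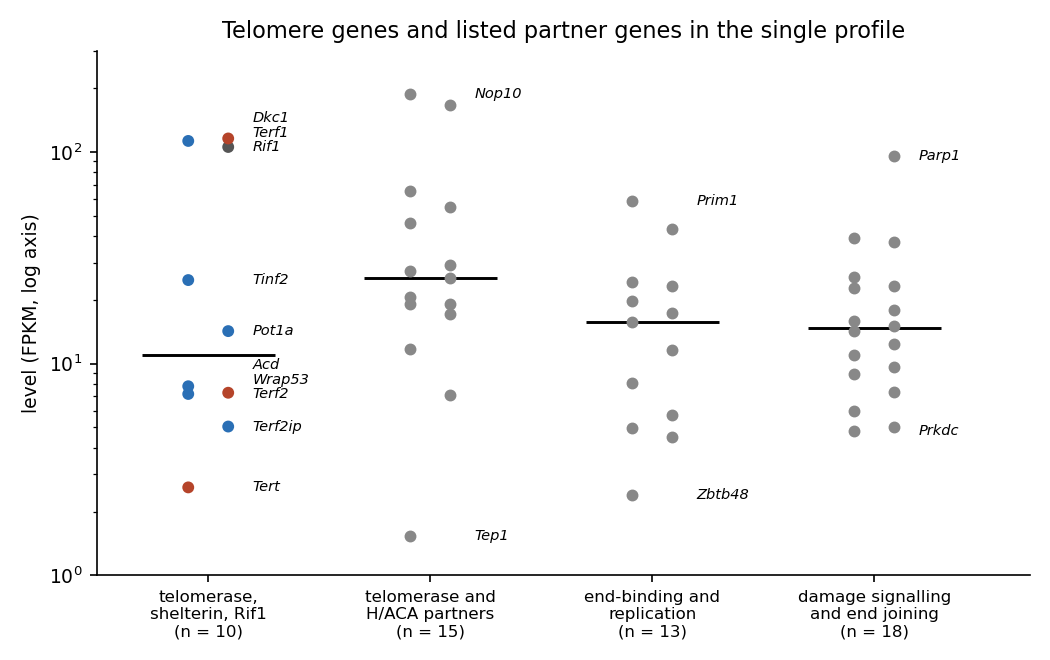
Levels in FPKM on a log axis for the 10 genes (telomerase red, shelterin blue, Rif1 dark grey) and for the measured genes of 3 partner lists in grey, with the median of each as a bar. The medians are 11.0, 25.4, 15.7 and 14.7 FPKM, and the highest and lowest listed partners are named.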

How the data were processed

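The one series table was analysed. The submitters' processing notes name the tools eXpress 1.1.1, Bowtie 1.1.2 and CASAVA 1.8.2 and the build mm9, without roles or settings. Per the file headers, the authors deposited read counts (total and unique), estimated counts, and FPKM with lower and upper bounds, for 1 model per gene symbol. Recomputing FPKM from the counts and effective length gave the deposited values within 0.0173%. A row without a gene name held the sum of all counts, 22625281, and was left out. No columns match a sample, so no group test, edgeR or other, was run, a case for which the plan had provided.

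Ratios of 2 genes carry exact (Clopper-Pearson) intervals from the counts. Model-length FPKM replaced the effective by the model length. GENCODE M21 held 18147 of the 18312 symbols (99.1%), some under a single RefSeq synonym. 3′ regions were exon bases after the stop codon of coding transcripts, with a minimum of 50 nt, and the longest per gene was the main choice. Similar transcripts were sought with blastn 2.17.0 on the plus strand. The ratio interval was tested on simulated counts. The motif search was tested only on motifs planted in random sequence of C and G, which says little about AT-rich regions. Promoter sequences were not used here.

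The members, lists and settings were chosen with earlier results of these data known. Named genes are the 10 members and, of each partner list, the highest, the lowest and any gene under 1 FPKM. Other partners were picked once their values were known. The software was Python 3.11.15 with scipy 1.17.1, pandas 2.3.3, matplotlib 3.10.9 and numpy 2.4.6.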

Additional observations from a re-analysis of the deposited data

How the results depend on the processing

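No paired analysis was possible because no column carries a replicate number or group, and for the same reason other tests, pseudocounts and filters for the comparisons of groups, and leaving out a library, were not run. All 10 genes had at least 1 FPKM with a minimum of 10 counts and with the model length, and 9 had at least 5 FPKM. With the model length, intervals did not overlap in 7 of the 9 neighbouring pairs, and list medians were 29.5 FPKM for the telomerase partners, 23.9 for end-binding and replication factors, 20.5 for damage signalling and 25.2 for regulators of Tert. That shift follows from the shorter length, since the median of all genes was 2.58 FPKM in place of 1.94. With the model length, 3 fibroblast markers and all 4 measured markers of 2-cell-like cells had at least 1 FPKM, in place of 2 and 3. At a threshold of 5 FPKM, 1 fibroblast marker and 0 primitive endoderm markers remained above it. The count of genes with an AU-rich motif was 3 with the heptamer TATTTAT, 8 with ATTTA and 0 with TTATTTATT. It was 2 with the shortest region, and, in settings chosen after the data were seen, 2 with the transcript nearest in length and 4 with any coding transcript. Genes with few counts are limited by counting error, 11.5% of the level either way for Tert against 1.43% for Rif1, and 1 profile gives no spread between samples.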

Other observations

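Zscan4 genes, which mark a small fraction of mouse embryonic stem cells and are tied there to telomere lengthening, were present at low levels. Zscan4c was at 5.28 FPKM (4.61 to 5.95), Zscan4f at 5.28 (4.58 to 5.98) and Zscan4d at 2.58 (2.11 to 3.04). These are near-identical copies, and total and unique counts were equal in every row. How reads shared between the copies were counted cannot be seen, so both these levels and the split between copies are uncertain. Of the 4 measured markers of 2-cell-like cells, 3 had at least 1 FPKM, against 56.0% of all genes, and Dub1 was at 0.935 FPKM. On the model length Dub1 was at 1.05 FPKM and all 4 reached 1 FPKM.

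All 8 listed textbook regulators of Tert transcription reached 1 FPKM, against 56.0% of all genes. The median of the 8 was 17.8 FPKM, against 9.66 FPKM for all genes with at least 1 FPKM. Max, the partner of Myc, had the highest value at 49.7 FPKM (47.7 to 51.6). Its interval overlapped that of Ctcf, another listed gene, at 49.5 (48.1 to 50.8). On the model length Ctcf at 65.4 FPKM was above Max at 57.1. Myc, an activator of Tert, was at 21.7 FPKM (20.6 to 22.8), and Mxd1, a repressor that competes with Myc for Max, was the lowest at 1.86 FPKM (1.61 to 2.12). Sp1 was at 36.2 FPKM, Klf4 at 13.9 and Wt1 at 2.30. A single profile gives no relation between these levels and that of Tert.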
